A study of Caenorhabditis elegans with 20 samples.

Results

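The histone genes of *C. elegans* were taken as every gene of the annotation whose symbol starts with *his-* or *hil-*, with *htz-1* added, which gave 81 gene identifiers. Of these, 52 had a value among the 27375 genes of the tables, and the other 29, whose levels are not analysed here, enter only the counts by annotation. RNA was extracted from whole animals at the L4 larval stage, with 4 libraries for each of 5 genotypes. These were wild type (strain N2), *hif-1(ia4)* mutants, *egl-9(sa307)* mutants, animals mutant for both *egl-9(sa307)* and *hif-1(ia4)*, and OR3350 animals. OR3350 animals have both mutations, *unc-119(ed3)* and the transgene *odIs131[hif-1::gfp]* with an *unc-119(+)* marker. According to the paper, its strains derive from N2. The hydroxylase EGL-9 targets the transcription factor HIF-1 for degradation, and the transgene puts a GFP-tagged HIF-1 back into animals that lack the endogenous protein. All libraries were selected for poly(A) RNA. The tables give 1 level per gene, the authors' mean log2 CPM (counts scaled to library size) over libraries, and which libraries enter it is not stated. No comparison of the tables involves the *hif-1(ia4)* single mutants, so the mean may not cover their libraries. No level per library or per genotype was used here, so these values have no error and no number of replicates, and no comparison between genotypes was made.

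Histones are the proteins around which DNA is wound. H2A, H2B, H3 and H4 form the core of the nucleosome, and H1 binds the linker DNA between nucleosomes. In animals most core histones are made from clustered genes without introns during DNA replication, and their mRNAs commonly end in a stem-loop instead of a poly(A) tail. Replacement histones such as H3.3 and H2A.Z enter chromatin outside replication and come from genes that mostly have introns and ordinary polyadenylated mRNAs.

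Replacement histone genes had the highest median level of the histone classes, linker genes were spread widely, and most core genes had low values. The libraries were selected for poly(A) RNA, so a low value of a core gene need not mean low expression. Whether this selection, or reads that fit several gene copies, lowered the core values was not tested. The median of the authors' mean log2 CPM was 6.03 over the 6 replacement genes, 3.78 over the 9 linker genes and -1.44 over the 36 core genes with a value. Over the 29 core genes whose symbol no other identifier has, it was -0.68. Each class was assigned from the gene's known product. The coding length of a gene was taken from its annotated transcript with the longest coding sequence, so other transcripts can be shorter. Coding lengths differed within classes, and *hil-7*, with 198 coding bases, was the shortest linker gene. Of the replacement H3 genes, *his-69* and *his-70* have 381 and 402 coding bases, *his-71* and *his-74* 408, and *his-72* 453. To compare genes of different length, the level was also taken per kb of annotated exon. On that scale the medians were 6.81 for replacement genes, 3.90 for linker genes and 0.09 for core genes, beside 1.49 over all 26866 genes of the tables that could be placed on WBcel235. The mean was at least 0 log2 CPM for 5 of the 6 replacement genes, 7 of the 9 linker genes and 11 of the 36 core genes. Over all genes of the tables, 51.3% had a mean of at least 0 log2 CPM.

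**Figure D1:**
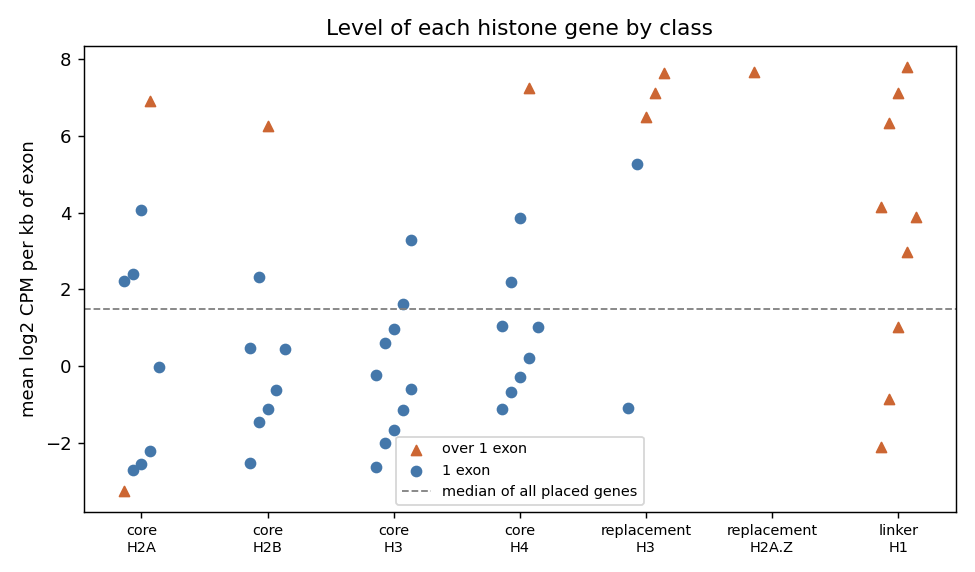
Each point is a histone gene with a value, placed by class on the horizontal axis and by the authors' mean log2 CPM per kb of exon on the vertical axis. *his-73*, which was put in no class, is not drawn. Circles have 1 exon and triangles more, and the dashed line is the median of all placed genes (1.49). Replacement genes have a median of 6.81 and core genes of 0.09, and the triangles among the core genes are the 3 highest and the lowest of them.

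Among the replacement genes, *htz-1*, which encodes H2A.Z, had a mean of 7.23 log2 CPM. It lies on chromosome IV from 4446216 to 4446999 (WBcel235), has 2 exons, and stood at 7.67 log2 CPM per kb, above 97.8% of placed genes. The H3.3 genes covered a wide range. *his-72* on chromosome III (12367475 to 12369050) had a mean of 6.99 log2 CPM, or 7.64 per kb, and overlaps the snoRNA gene *Y49E10.36* on the same strand. *his-74* on chromosome V (12659704 to 12660330) was at 6.34, or 7.13 per kb. The X-linked *his-71* (7981382 to 7982070) was at 5.73, or 6.48 per kb. The neighbours *his-69* and *his-70* on chromosome III are both models with 1 exon, yet differed in level. The mean of *his-70* (4059715 to 4060119) was 3.97 log2 CPM, or 5.28 per kb, and that of *his-69* (4058360 to 4058743) was -2.49, or -1.11 per kb. *his-72*, *his-74* and *his-71* have 2 or 3 exons each and stood above 95.1% to 97.8% of placed genes per kb.

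Linker histone genes covered almost the full range of the histone levels. *hil-5* had the highest mean of all 52 histone genes with a value, 7.59 log2 CPM, and stood at 7.79 per kb, above 98.0% of placed genes. It lies on chromosome I from 5774585 to 5775610. *hil-4* (7.05 log2 CPM, 7.12 per kb) and *hil-2* (5.93 log2 CPM, 6.33 per kb) came next. *hil-3* was at 3.92 log2 CPM (4.14 per kb) and *his-24*, an H1 gene on the X chromosome, at 3.78 (3.90 per kb). *hil-2* overlaps a miRNA gene on the same strand, and *his-24* overlaps the noncoding RNA genes *M163.16* and *M163.19* on the other. Without genes that overlap another gene, the median was 5.73 log2 CPM for replacement genes and 2.84 for linker genes. *hil-1* had a mean of 2.84 log2 CPM (2.97 per kb) from a model of 5 exons. The remaining linker genes were low: *hil-7* at 0.21 log2 CPM, *hil-8* at -0.08 and *hil-6* at -2.43, or 1.01, -0.86 and -2.11 per kb.

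Among core genes, the 3 with the highest levels all have an intron. *his-37*, an H4 gene, had a mean of 6.03 log2 CPM, *his-35*, an H2A gene, 5.91, and *his-41*, an H2B gene, 5.30. They stood at 7.25, 6.92 and 6.26 log2 CPM per kb. All 3 lie side by side on chromosome V between 9544659 and 9547607 and have 2 exons each. *his-37* overlaps *nstp-10* on the other strand and *his-41* overlaps *C50F4.6* on the same strand, and the authors' settings for reads from such overlaps were not stated. STAR's own gene counting takes reads that have 1 place in the genome and overlap 1 gene, so the level of an overlapping gene can lack the reads of the overlap. Of the 65 core genes, 61 have 1 exon, and the 32 of these with a value had a median of -1.49 log2 CPM and a highest value of 2.68. For the 26 of them whose symbol no other identifier has, the median was -0.98. The only other core gene with more than 1 exon was the *his-47* copy WBGene00001931 on chromosome IV, a model of 3 exons at -3.81 log2 CPM that overlaps *klp-12*.

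Within each core family the levels ran over several log2 units. The copies given with an identifier below share their symbol with other identifiers. Whether reads that fit several copies, and so were not counted, lowered their values was not tested. Among genes whose symbol no other identifier has, the lowest were *his-16* (-3.58) for H2A, *his-39* for H2B, *his-42* for H3 and *his-31* for H4. For H2A, *his-35* was followed by *his-68* (2.68 log2 CPM) and *his-61* (1.01). The lowest were the *his-12* copy WBGene00001886 (-4.09), the *his-47* copy WBGene00001921 (-3.95) and the *his-47* copy WBGene00001931. The value of *his-12* was within 0.1 of the lowest value of the tables, -4.09, which 161 genes shared. For H2B, *his-41* was followed by *his-62* (0.91) and *his-4* (-0.97), which overlaps *T10C6.19* on the other strand. The *his-58* copy WBGene00001932 (-3.96), *his-39* (-3.76) and the *his-15* copy WBGene00001885 (-2.57) were the lowest. *his-39* is a model of 204 bases, shorter than the other H2B genes. For H3, the highest were *his-59* (2.01), *his-40* (0.33) and *his-6* (-0.31). The lowest were *his-42* (-3.93), the *his-45* copy WBGene00001919 (-3.28) and *his-17* (-2.95). For H4, *his-37* was followed by *his-60* (2.19) and *his-38* (0.51), and *his-31* (-2.81), *his-1* (-2.37) and *his-64* (-1.95) were the lowest. *his-73*, which was put in no class, is a model of 141 bases on chromosome II that overlaps *W09H1.4* and had a mean of -0.91 log2 CPM.

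The genes without a value were all core genes that share their symbol with another identifier. The annotation gives 36 of the 81 identifiers a symbol that at least 1 other identifier also has. Of these 36, 7 had a value, between -4.09 and -2.43 log2 CPM, and 29 had none. All 45 identifiers with a symbol of their own had a value. The copies that share a symbol have the same coding length, apart from the spliced *his-47* copy. No genome sequence was used here, so how many 50-base reads could be placed in 1 copy was not tested. STAR's own gene counting leaves out reads that fit several places, but the settings used were not stated. The level of a single copy cannot be told apart from the share of its reads that were counted.

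Core genes of the annotation lie in divergent pairs. Of 65 core genes, 62 form 31 pairs in which the nearest other histone gene is on the opposite strand and transcribed away from it. In 16 pairs an H2A gene faces an H2B gene, in 14 an H3 gene faces an H4 gene, and in 1 the H4 gene *his-67* faces the H2A gene *his-68*. The gap between the 2 genes of a pair ran from 227 to 368 bases, with a median of 258.0. Only *his-37*, *his-39* and *his-42* are outside these pairs.

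Both genes of 15 pairs had a value, and in 9 of these the levels differed by less than 1 on the log2 scale (median difference 0.65). The 9 include the *his-58* copy WBGene00001932 (-3.96) and the *his-47* copy WBGene00001931 (-3.81), near the lowest value of -4.09. The differences were not corrected for gene length. They were also not corrected for shared symbols, which the *his-12*, *his-15*, *his-47* and *his-58* copies of these pairs have. Core genes that are not partners were not compared, so no match in level within pairs was tested. The H3 gene *his-63* (-1.89 log2 CPM) and the H4 gene *his-64* (-1.95) were the closest in log2 CPM, 0.06 apart. Their models have 411 and 312 bases, and per kb they stood at -0.61 and -0.27. The pair *his-6* and *his-5* stood at 0.97 and 1.01 per kb. *his-61* and *his-62* on chromosome IV were at 1.01 and 0.91 log2 CPM, and the next pair, *his-60* and *his-59*, at 2.19 and 2.01. *his-35* and *his-41* were at 5.91 and 5.30. The H4 gene *his-67* and the H2A gene *his-68* were the furthest apart, at -0.64 and 2.68 log2 CPM, 3.32 apart. The *his-47* copy WBGene00001921 (-3.95) and *his-48* (-0.98) differed by 2.96 on the log2 scale, and *his-31* (-2.81) and *his-32* (-0.68) by 2.13. Among these genes, only the *his-47* copy shares its symbol with other identifiers. These differences are descriptions of 1 mean per gene, and their error is not known.

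**Figure D2:**
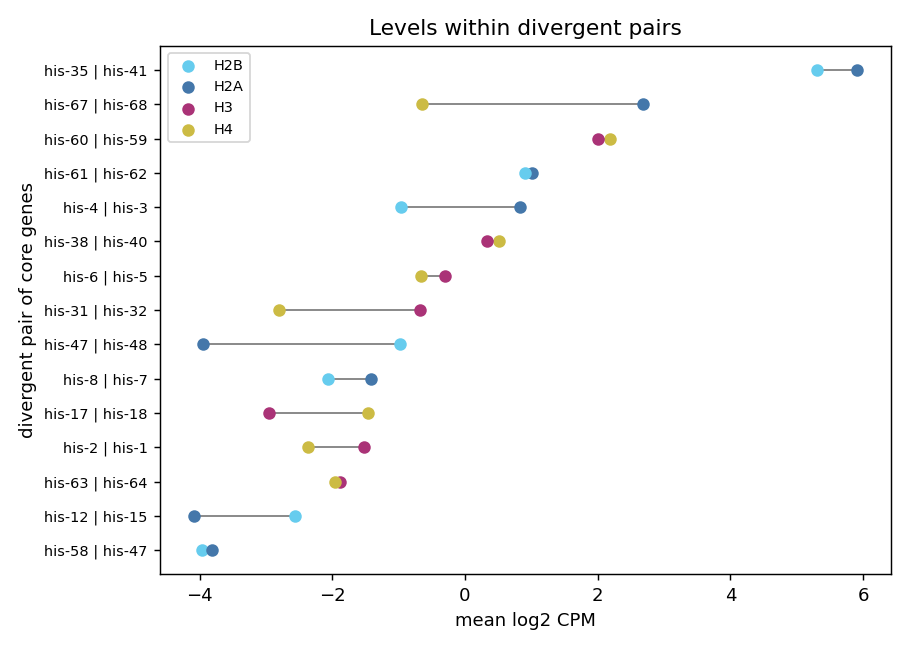
Each row is a divergent pair of core genes with both values, and the 2 points are the authors' mean log2 CPM of the genes, coloured by family. The 15 pairs run from the *his-58* and *his-47* copies near the lowest value to *his-35* and *his-41* above 5, and the longest line joins *his-67* and *his-68* (3.32 apart).

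The genes related to histones, among them centromeric H3 genes with other symbols, stood above 73.4% to 99.1% of placed genes per kb. The list held 16 genes, all with a value, and their median was 5.20 log2 CPM per kb, from 3.72 for *hira-1*, which encodes the H3.3 chaperone subunit HIRA, to 9.14 for *nap-1*, which encodes a nucleosome assembly protein. *cdl-1*, which encodes the protein that binds the stem-loop of histone mRNAs, was at 5.86 per kb and the Argonaute gene *csr-1* at 6.87. The FACT genes *spt-16*, *hmg-3* and *hmg-4* were at 5.96, 5.79 and 4.71 log2 CPM per kb. *lin-53* and *rba-1*, which encode histone-binding chaperones of the RbAp family, were at 6.33 and 5.20. The ASF1 genes *unc-85* and *asfl-1* stood at 5.50 and 4.98, and the chromatin assembly factor genes *chaf-2* and *chaf-1* at 5.02 and 4.62 per kb. The centromeric H3 genes *hcp-3* and *cpar-1* were at 5.21 and 3.99, and *set-1*, which encodes an H4 lysine methyltransferase, at 4.44. Each of these 16 genes was above the medians of the core histone genes with a value (0.09 per kb) and of all placed genes (1.49 per kb). Of the *his-*, *hil-* and *htz-1* genes, 7 were above all of these 16 genes except *nap-1*. These were *hil-5*, *htz-1*, *his-72*, *his-74* and *hil-4*, and the core genes *his-37* and *his-35*.

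**Figure D3:**
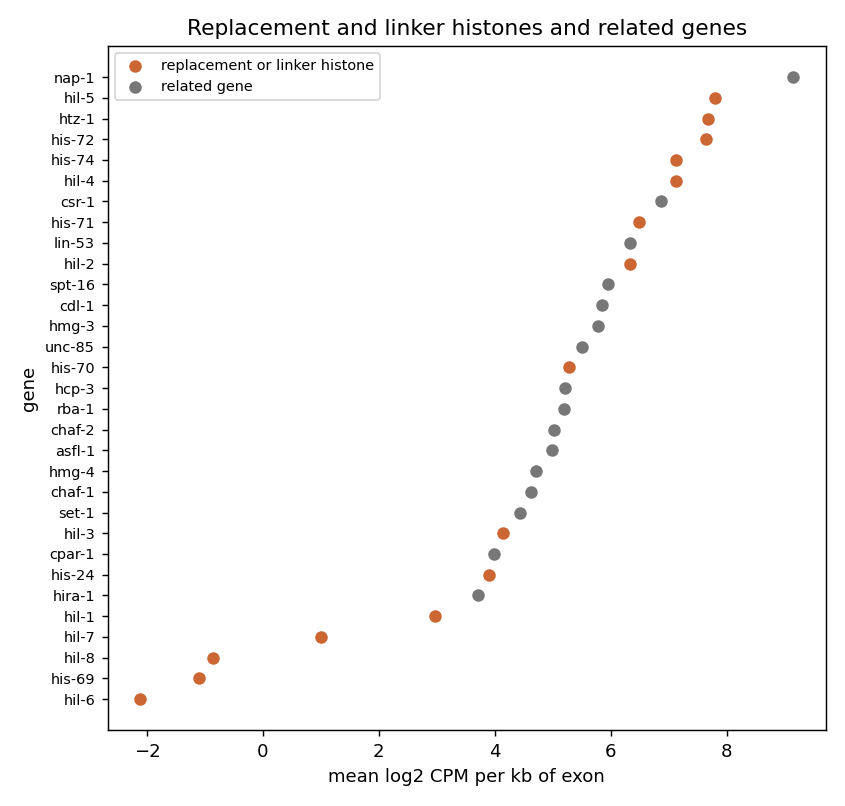
The horizontal axis is the authors' mean log2 CPM per kb of exon and each row is a gene, with replacement and linker histones in one colour and the 16 related genes in the other. *nap-1* is the highest at 9.14, followed by *hil-5* (7.79), *htz-1* (7.67) and *his-72* (7.64), and *hil-6* is the lowest at -2.11.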

How the data were processed

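RNA of 20 libraries (5 genotypes, 4 libraries each) was sequenced by the authors as single-end reads of 50 bases. According to their methods and processing notes, reads were aligned to genome release WS245, counted per gene with STAR 2.5.1a and modelled with edgeR, whose version was not stated. The deposited tables give log2 CPM, the authors' mean over libraries, which was the same in all 4 tables. Their other columns (log2 fold change, likelihood ratio, p-value and FDR of the authors' own comparisons) were not used, so no test was run. The depth per library was not used here.

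Members were joined by gene identifier to the Ensembl annotation of WBcel235, and all 81 were found. Exonic length is the union of annotated exons, and for models with 1 exon it is the coding length with the stop codon. The level per kb is the mean log2 CPM minus the log2 of that length in kb. Pairs of core genes had a gap of at most 1000 bases. Genes to be named were all linker and replacement genes, the 3 highest and 3 lowest of each core family, and 16 related genes. The members and lists were chosen with earlier results of these data known. Python 3.11.15, numpy 2.4.6, pandas 2.3.3 and matplotlib 3.10.9 were used. Length and scaling steps were tested on simulated data, and the neighbour step on a small made-up example.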

Additional observations from a re-analysis of the deposited data

How the results depend on the processing

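The mean log2 CPM was identical in the 4 tables, so the medians of the core, replacement and linker genes (-1.44, 6.03 and 3.78) were the same in each. Per kb of transcript these medians were 0.093, 6.81 and 3.90. Over genes with a mean of at least 0 log2 CPM they were 2.01, 6.34 and 3.92. Leaving out members whose symbol other identifiers share, chosen after seeing the data, gave a core median of -0.68 and changed no other. Leaving out members that overlap another gene, also chosen after seeing the data, gave 5.73 for replacement and 2.84 for linker genes. Replacement genes had the highest and core genes the lowest median per kb and without the shared symbols or the overlaps. The filter at 0 log2 CPM acts on the level itself, and the tables hold the same column, so neither bears on that order. A level per kb of uniquely placed 50-base windows and the window of 75 bases were not run, because no genome sequence was used here. Fits of counts between genotypes and their alternatives (DESeq2, other size factors, no filter, leaving out replicates) were not run, because the values used are means over libraries. No paired analysis was possible because the result comes from no test.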
